A study of Mus musculus with 4 samples.

Results

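The data describe 8 genes that make, load, break down and sense the inhibitory transmitter GABA or set the chloride gradient on which its action depends: *Gad1*, *Gad2*, *Slc32a1*, *Abat*, *Slc12a2*, *Slc12a5*, *Gabbr1* and *Gabbr2*. They were chosen by symbol among the 55573 Ensembl genes of the count lists, each symbol matched 1 identifier in GENCODE release M21, and all 8 passed the expression filter that left 16832 genes for testing. The libraries came from Hmx3-Cre/tdTomato cells sorted by red fluorescence from the mouse basal telencephalon at E16, the day of insemination being counted as E1. The 2 libraries of the *Dnmt1* wild type (WT) were made from cells of 12 embryos. The 2 libraries of the *Dnmt1* knockout (KO) were made from cells of 6 embryos, in which Cre removed the loxP-flanked exons 4 and 5 of *Dnmt1*. Both genotypes carried the Cre driver and the reporter, so that deletion and fluorescence both followed the activity of *Hmx3*, a transcription factor of the preoptic area (POA). The sample labels call the libraries biological replicates, whereas the study describes pooled samples run as technical duplicates, and the p-values measure only the spread between these libraries.

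GABA is made from glutamate by the decarboxylases encoded by *Gad1* and *Gad2* and is packed into synaptic vesicles by the vesicular transporter encoded by *Slc32a1*. The transaminase encoded by *Abat* breaks it down in mitochondria. Whether GABA hyperpolarises or depolarises a neuron depends on intracellular chloride, which is raised by the importer NKCC1 (*Slc12a2*) and lowered by the exporter KCC2 (*Slc12a5*), with NKCC1 prevailing in immature neurons. The slow, G protein-coupled response to GABA is carried by the GABA-B receptor, an obligate pair of the subunits encoded by *Gabbr1* and *Gabbr2*.

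Of the 8 genes, *Gabbr2* passed the edgeR test as higher in KO (adjusted p under 0.05), and none was lower by edgeR, DESeq2 or limma-voom. The GABA-B genes had the largest increases, *Gabbr2* by 1.79-fold and *Gabbr1* by 1.24-fold, the latter without passing the test. *Gad1*, *Gad2* and *Slc32a1* had levels of 0.778 to 0.816 of those in WT and did not pass either, and this direction turned when libraries were scaled to pan-neuronal genes. *Abat* and both chloride cotransporters had fold changes between 0.967 and 1.01. Among all tested genes 7.33% were higher and 0.57% lower by the same rule (7.9% in either direction), so that 1 of 8 is close to the background. At an unadjusted p under 0.05, *Gabbr1* and *Gabbr2* were higher and *Slc32a1* was lower, against 14.6% and 8.01% of all genes. Median log2 fold changes were -0.020 over the 8 genes and -0.026 over all tested genes.

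Library totals lay between 8075102 and 9995968 counts, at which 3 counts correspond to 0.294 to 0.372 CPM (read counts relative to TMM-scaled library sizes). WT 1 stood apart in its mitochondrial rRNA, which took 8.66% of its counts against 1.51% to 2.32% in the other libraries. The targeted gene *Dnmt1* had 385 and 446 CPM in WT and 283 and 281 CPM in KO (log2 fold change -0.56, edgeR adjusted p = 0.0511). Its log2 fold change was -0.034 when libraries were scaled to 10 genes carried by neurons in general. That scaling moved the median of all tested genes from -0.026 to 0.50, so that *Dnmt1* lay below the median on both scales. *Dnmt1* passed in 10 of 16 alternative fits, among them DESeq2 (adjusted p = 0.00843), limma-voom (0.0358) and the correction for length and GC (0.00200). The log2 fold change was -0.67 without WT 1 and -0.46 without WT 2. It was -0.55 without KO 1 (SE 0.29) and -0.55 without KO 2 (SE 0.30), so that these fits lost precision and not the difference. A fit without 1 library takes its spread from the pair of the other genotype alone. The KO libraries differed less from each other than the WT libraries, and a call made without a WT library leaves out the spread of WT. The counts were made over the whole gene, not over the deleted exons. The KO libraries also carried more RNA of glial and mural marker genes, as given in full further on. In RNA from a sorted pool, fewer cells of a type and less RNA per cell cannot be told apart.

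The windows around the RefSeq start sites of 5 of the genes are printed first, since DNMT1 is the enzyme that maintains methylation of the cytosine in CpG dinucleotides. They are shown for the synthesis and loading genes, none of which passed the test, and for the GABA-B pair, of which 1 gene passed. Each runs 5′ to 3′ from 250 bases before to 50 bases after the start in RefSeq on GRCm38.p6, and capitals mark every CpG. The windows are chr2:70561879-70562178 on the plus strand for *Gad1*, chr2:22622077-22622376 on the plus strand for *Gad2*, chr2:158610508-158610807 on the plus strand for *Slc32a1*, chr17:37045716-37046015 on the plus strand for *Gabbr1* and chr4:46991665-46991964 on the minus strand for *Gabbr2*.
*Gad1*: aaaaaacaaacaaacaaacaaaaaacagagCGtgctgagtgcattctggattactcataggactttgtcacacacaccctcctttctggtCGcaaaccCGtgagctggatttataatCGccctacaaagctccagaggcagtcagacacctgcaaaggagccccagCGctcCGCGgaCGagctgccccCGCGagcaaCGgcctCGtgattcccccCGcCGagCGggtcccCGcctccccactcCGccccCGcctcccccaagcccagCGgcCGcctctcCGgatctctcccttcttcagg
*Gad2*: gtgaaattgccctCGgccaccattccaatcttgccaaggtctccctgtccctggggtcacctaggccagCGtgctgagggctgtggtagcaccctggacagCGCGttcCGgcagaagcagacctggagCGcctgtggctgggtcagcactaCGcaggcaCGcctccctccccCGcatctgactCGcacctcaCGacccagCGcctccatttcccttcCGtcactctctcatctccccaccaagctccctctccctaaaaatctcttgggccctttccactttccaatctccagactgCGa
*Slc32a1*: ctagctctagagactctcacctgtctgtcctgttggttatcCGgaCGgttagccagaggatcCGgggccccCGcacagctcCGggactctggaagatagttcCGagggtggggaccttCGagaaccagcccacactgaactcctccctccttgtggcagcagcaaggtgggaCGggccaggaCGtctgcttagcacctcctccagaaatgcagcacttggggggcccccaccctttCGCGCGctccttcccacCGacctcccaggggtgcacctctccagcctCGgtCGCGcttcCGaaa
*Gabbr1*: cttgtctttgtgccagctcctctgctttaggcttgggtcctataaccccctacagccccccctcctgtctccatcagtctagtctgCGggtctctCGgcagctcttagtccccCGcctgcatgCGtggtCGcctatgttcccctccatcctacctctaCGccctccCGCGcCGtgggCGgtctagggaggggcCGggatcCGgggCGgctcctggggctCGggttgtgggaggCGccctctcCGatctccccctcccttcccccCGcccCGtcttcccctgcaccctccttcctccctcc
*Gabbr2*: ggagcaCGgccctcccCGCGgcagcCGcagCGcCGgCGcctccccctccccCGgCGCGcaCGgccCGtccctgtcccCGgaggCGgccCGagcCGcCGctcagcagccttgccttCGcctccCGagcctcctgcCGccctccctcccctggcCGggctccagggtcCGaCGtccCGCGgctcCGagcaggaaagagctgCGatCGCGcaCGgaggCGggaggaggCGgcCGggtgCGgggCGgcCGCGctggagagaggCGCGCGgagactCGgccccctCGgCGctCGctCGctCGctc

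The *Gabbr2* window held 46 CpGs, and 1.65% of the 32851 mouse windows of this length held as many or more. *Gad1* held 21, *Gabbr1* 18, *Slc32a1* 17 and *Gad2* 14, and the median window held 7. In the same order, 24.8%, 29.7%, 31.4% and 36.3% of all windows held as many or more. The 2 windows of *Slc12a5*, not printed, held 21 each. Windows were found for 6 of the 8 genes, and those of *Abat* and *Slc12a2* are not given here. The letters TATAAA, searched on both strands, occurred once in the *Gad1* window and in none of the other windows examined, against 13.6% of all windows. TAATTA, which reads the same on both strands and is a core recognised by many homeodomain proteins, occurred in none of them, against 5.29% of all windows. No window examined held both motifs, and CpG methylation was not analysed here.

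*Gad1* lies on chromosome 2 of GRCm38 from 70553072 to 70602014, *Gad2* on the same chromosome from 22622205 to 22693874, and the 2 enzymes differ in that the product of *Gad1* is spread through the cell while that of *Gad2* is concentrated at nerve endings. *Gad1* drew 1287 and 1552 reads from the WT libraries and 1066 and 1159 from those of KO. This was 160 and 152 CPM in WT and 127 and 128 CPM in KO. The highest KO library lay below the lowest WT library, and the log2 fold change was -0.29 (SE, the standard error of the fit, 0.14, 95% interval -0.61 to 0.020, edgeR adjusted p = 0.245).

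*Gad2* had 252 and 183 CPM in WT and 179 and 169 CPM in KO. Both KO libraries were again the lower ones, but KO 1 differed from WT 2 by far less than the WT libraries differed from each other. Its log2 fold change was -0.32 (SE 0.18, 95% interval -0.73 to 0.085, edgeR adjusted p = 0.322). The value rests on WT 1: without that library it was -0.081, and without WT 2 it was -0.54. *Gad1* moved little by comparison, from -0.34 to -0.27 when any 1 library was left out.

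*Slc32a1*, on chromosome 2 from 158610767 to 158615748, had 70.1 and 74.7 CPM in WT and 53.0 and 59.6 CPM in KO. Again the genotypes did not overlap, and the log2 fold change was -0.36 (SE 0.15, 95% interval -0.70 to -0.022, edgeR adjusted p = 0.196). With gene length and GC content corrected in each library it was -0.41 and passed the threshold (adjusted p = 0.0369). The antisense gene *Gm14205* overlaps 24.9% of the exonic bases of *Slc32a1* and had at most 6 counts in any library. Since the strand setting of the counting is not known, this low count does not show that the overlap left the counts of *Slc32a1* untouched. The direction of all 3 genes turned when libraries were scaled to 10 genes carried by neurons in general, as described further on.

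The 3 tested genes whose profile over the 4 libraries was nearest to the mean profile of *Gad1*, *Gad2* and *Slc32a1*, among 8135 other genes with a mean above 20 CPM, were *Tspan3*, *Crnkl1* and *Lrrc7*. Their distances, on centred log2 CPM, were 0.031, 0.034 and 0.035. With 4 libraries such likeness describes a shape that many genes share.

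*Abat*, on chromosome 16 from 8513429 to 8621568, had 244 and 264 CPM in WT and 248 and 243 CPM in KO. The genotypes overlapped, and the log2 fold change was -0.048 (SE 0.13, edgeR adjusted p = 0.871), against 0.059 on library size alone and 0.48 on the pan-neuronal scale. Its 95% interval, -0.36 to 0.26, holds changes in either direction.

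For both chloride cotransporters the libraries of WT and KO overlapped, and the intervals below bound what 4 libraries can show. *Slc12a2*, on chromosome 18 from 57878678 to 57946821, had 73.4 and 56.8 CPM in WT and 73.5 and 58.0 CPM in KO. The spread between libraries of 1 genotype was thus larger than the difference between genotypes, and the log2 fold change was 0.016 (SE 0.19, 95% interval -0.42 to 0.45, edgeR adjusted p = 0.97). *Slc12a5*, on chromosome 2 from 164960802 to 164999731, had 113 and 105 CPM in WT and 100.2 and 119 CPM in KO. Here too the genotypes overlapped, with a log2 fold change of 0.0086 (SE 0.15, 95% interval -0.35 to 0.36, edgeR adjusted p = 0.985).

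The ratio of the 2 cotransporters within a library does not depend on how libraries are scaled. Per kilobase of merged exon length, *Slc12a2* stood at 0.441 and 0.370 of *Slc12a5* in WT and at 0.50 and 0.332 in KO. The exporter was therefore the more abundant transcript in each of the 4 libraries, and the ratios of KO lay on both sides of those of WT. On the log2 scale the ratio was -1.31 ± 0.18 (SD, n = 2) in WT and -1.30 ± 0.42 (SD, n = 2) in KO (two-sided exact permutation p = 1). The smallest p that 2 against 2 libraries can give is 0.333. The ratio of *Gad1* to *Gad2* was 0.488 and 0.639 in WT and 0.544 and 0.583 in KO, so that both KO values lay between those of WT (exact permutation p = 1).

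**Figure D1:**
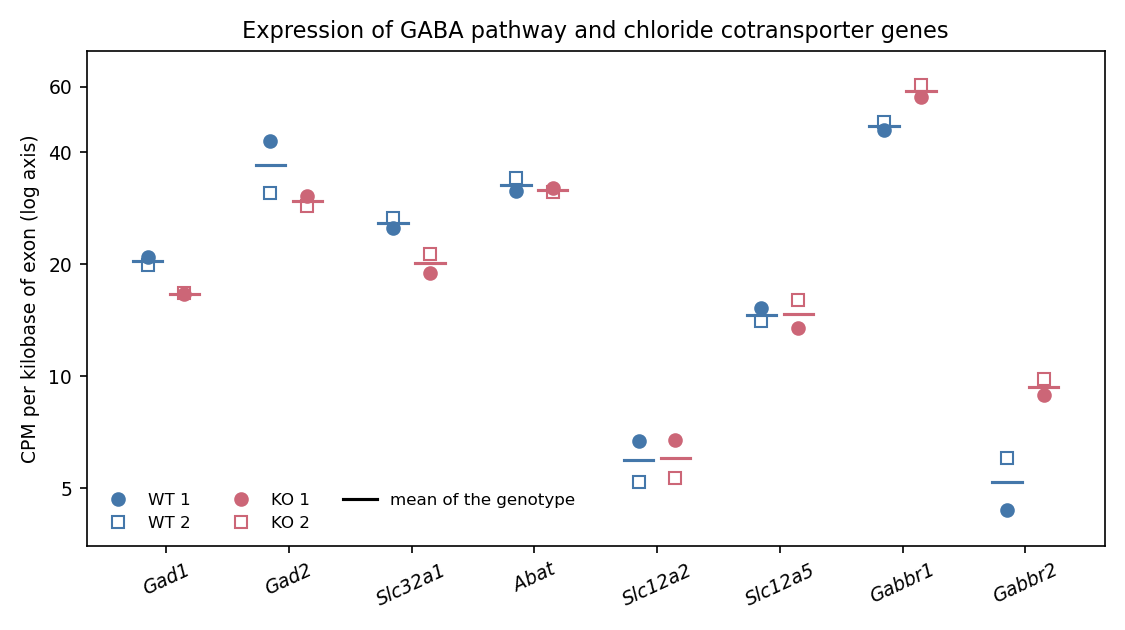
Expression of the 8 genes in each library, in CPM per kilobase of merged exon length on a log axis, with filled symbols for replicate 1, open symbols for replicate 2 and a line for the mean of each genotype (blue WT, red KO). The KO points of *Gabbr1* and *Gabbr2* lie above both WT points, those of *Gad1*, *Gad2* and *Slc32a1* below, and the points of *Abat*, *Slc12a2* and *Slc12a5* overlap.

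The GABA-B subunit genes were both higher in each KO library than in each WT library. *Gabbr2* encodes the subunit that couples the receptor to G proteins and brings it to the cell surface. It lies on the minus strand of chromosome 4 from 46662305 to 46991873, and its reads numbered 236 and 412 in WT and 502 and 596 in KO. Scaled, these were 29.3 and 40.4 CPM in WT and 59.7 and 65.6 CPM in KO, and the lowest KO library stood clear of the highest WT library. The log2 fold change was 0.84 (SE 0.19, 95% interval 0.41 to 1.28, edgeR adjusted p = 0.0322). *Gabbr2* passed in 15 of 16 alternative fits. The exception was the fit without KO 2, in which KO 1 alone stood for its genotype and was assumed to vary like the other libraries (0.78, adjusted p = 0.159).

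*Gabbr1* encodes the subunit that binds GABA and lies on chromosome 17 from 37045966 to 37075067. It had 356 and 376 CPM in WT and 438 and 470 CPM in KO, again with no overlap. Its log2 fold change was 0.31 (SE 0.13, edgeR adjusted p = 0.220), which passed with length and GC content corrected (0.31, adjusted p = 0.0461). Without WT 2 it was 0.34. Per kilobase, *Gabbr1* stood at 10.5 and 8.01 times *Gabbr2* in WT and at 6.32 and 6.16 times in KO. On the log2 scale the ratio was 3.20 ± 0.27 (SD, n = 2) in WT and 2.64 ± 0.026 (SD, n = 2) in KO, and the KO values lay below those of WT (two-sided exact permutation p = 0.333, the smallest the design allows).

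Levels of different genes can be compared only per length of transcript. The length used here merges the exons of all annotated transcripts of a gene and can exceed that of the transcripts expressed. The order given below depends on it: on mean CPM in WT, *Gad1* (156) lay above *Slc32a1* (72.4), and per kilobase it lay below. On CPM per kilobase of merged exon, *Gabbr1* was the most abundant of the 8 in both genotypes, with means of 47.1 in WT and 58.4 in KO. In WT it was followed by *Gad2* (37.0), *Abat* (32.8), *Slc32a1* (25.9), *Gad1* (20.4), *Slc12a5* (14.6), *Slc12a2* (5.96) and *Gabbr2* (5.21). The libraries of *Gad2* and *Abat* overlapped in this order, as did those of *Slc12a2* and *Gabbr2*, while the other neighbours were apart in both libraries. In KO, *Abat* (31.7) stood above *Gad2* (29.6) and *Gabbr2* (9.37) above *Slc12a2* (6.02), each without overlap, and the other positions were as in WT.

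Non-overlap of 2 against 2 libraries is common in these data. Both KO libraries lay above both WT libraries in 2 of the 8 genes and in 28.3% of all tested genes, and below them in 3 of the 8 genes and in 25.2% of all tested genes.

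Of 79 further genes of the pathway in 8 lists, 66 were tested, of which 11 were higher and 1 was lower in KO, beside 7.33% higher and 0.57% lower among all tested genes. The number of lower genes was 7 without WT 1, 11 without WT 2 and 0 without KO 2. Lower calls over all genes moved in the same fits, from 96 of 16832 to 1300 of 18187 without WT 1, 2180 of 18100 without WT 2 and 51 of 17724 without KO 2. Over the 66 genes the median log2 fold change was -0.062, against -0.026 over all tested genes.

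GABA is cleared from the extracellular space by plasma membrane transporters. *Slc6a11* encodes GAT3, which is found mainly on astrocytes, and rose from 14.3 and 13.9 CPM in WT to 128 and 151 CPM in KO. This was a log2 fold change of 3.31 (SE 0.17, edgeR adjusted p = 1.35e-05), or 9.90-fold. *Slc6a12* and *Slc6a13*, whose products transport GABA mainly outside neurons, had at most 11 counts in any library and were not tested.

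In the GABA shunt and the supply of the cofactor pyridoxal phosphate, 1 of 6 tested genes was higher, beside 7.33% of all tested genes. This was *Maob*, a monoamine oxidase gene that contributes to GABA synthesis from putrescine in astrocytes, with 6 and 9 reads in WT and 99 in each KO library (log2 fold change 3.77, edgeR adjusted p = 0.000564). *Aldh5a1*, whose enzyme follows the *Abat* step, had 46.3 and 44.9 CPM in WT and 50.2 and 50.7 CPM in KO (0.15, adjusted p = 0.600). Of 10 tested genes of glutamate and glutamine supply, 4 were higher and none lower, beside 7.33% and 0.57% of all tested genes. They were the glutamate transporters *Slc1a2* (log2 fold change 4.26) and *Slc1a3* (2.95), the glutamine synthetase *Glul* (2.84) and the glutamine transporter *Slc38a3* (2.82), all of which are known for their expression in astrocytes. Astrocyte markers rose in the same libraries, from a summed 99.4 to 104 CPM in WT to 1533 to 1550 CPM in KO, and their part in these values was not tested. *Slc38a2*, which encodes another glutamine transporter, had 373 and 300.3 CPM in WT and 276 and 258 CPM in KO (-0.33, adjusted p = 0.243, and 0.21 on the pan-neuronal scale). Without WT 2 it was -0.49 and without WT 1 it was -0.18.

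Among the other cation-chloride cotransporters, 1 of 5 tested genes was higher, beside 7.33% of all tested genes. *Slc12a4*, which encodes the widely expressed KCC1, rose from 9.31 and 12.3 CPM in WT to 41.8 and 48.8 CPM in KO (log2 fold change 2.06, SE 0.21, edgeR adjusted p = 0.000642). *Slc12a1* and *Slc12a3*, known from the kidney, had at most 6 counts in any library.

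Of 14 tested genes of the WNK kinases, which control both cotransporters by phosphorylation, and of other chloride handling, 2 were higher, beside 7.33% of all tested genes. *Car2*, a carbonic anhydrase gene, was covered by 19 and 17 reads in WT and 448 and 388 in KO (log2 fold change 4.59, edgeR adjusted p = 2.77e-05). The kinase gene *Wnk2* had 204 and 211 CPM in WT and 297 and 345 CPM in KO (0.63, SE 0.14, adjusted p = 0.0334). Without KO 1 it was 0.74 (SE 0.28, adjusted p = 0.103) and without KO 2 it was 0.52 (SE 0.29, adjusted p = 0.536). *Wnk1* had a log2 fold change of 0.39 (adjusted p = 0.204), which was 0.58 without WT 1 and 0.20 without WT 2. With length and GC content corrected it passed (0.44, adjusted p = 0.0326).

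Of 12 GABA-B receptor partners and effectors, 1 was higher and none was lower, which is close to the 7.33% and 0.57% of all tested genes. *Gnao1*, which encodes the G protein subunit most abundant in neurons, rose from 454 and 415 CPM in WT to 805 and 926 CPM in KO (log2 fold change 0.99, SE 0.15, edgeR adjusted p = 0.00441). *Gnai2* encodes a related subunit and had 209 and 247 CPM in WT and 214 and 234 CPM in KO, so that the genotypes overlapped. None of the 4 genes of auxiliary KCTD subunits passed, at 12 to 68 counts in each library.

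Of 12 transcription factors of GABAergic fate, 1 was lower and none higher, beside 0.57% and 7.33% of all tested genes. *Isl1*, a LIM-homeobox gene of striatal and hypothalamic neurons, had 81.1 and 66.1 CPM in WT and 39.6 and 40.1 CPM in KO (log2 fold change -0.88, SE 0.16, edgeR adjusted p = 0.0126). Without KO 1 it was -0.86 (SE 0.32, adjusted p = 0.0959) and without KO 2 it was -0.89 (SE 0.31, adjusted p = 0.0763). On the pan-neuronal scale it did not pass (-0.34, adjusted p = 0.20). *Dlx1*, of the *Dlx* family that acts upstream of *Gad1* and *Gad2*, had 703 and 637 CPM in WT and 556 and 603 CPM in KO (-0.21, adjusted p = 0.423, and 0.33 on the pan-neuronal scale). Of 12 genes of other transmitters 5 were tested and none passed. Of these, *Th*, which encodes the first enzyme of catecholamine synthesis, had 102 and 125 CPM in WT and 90.1 and 99.0 CPM in KO (-0.26, adjusted p = 0.368, and 0.26 on the pan-neuronal scale). Without WT 1 it was -0.41 and without WT 2 it was -0.12. With length and GC content corrected it passed (-0.43, adjusted p = 0.0203).

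**Figure D2:**
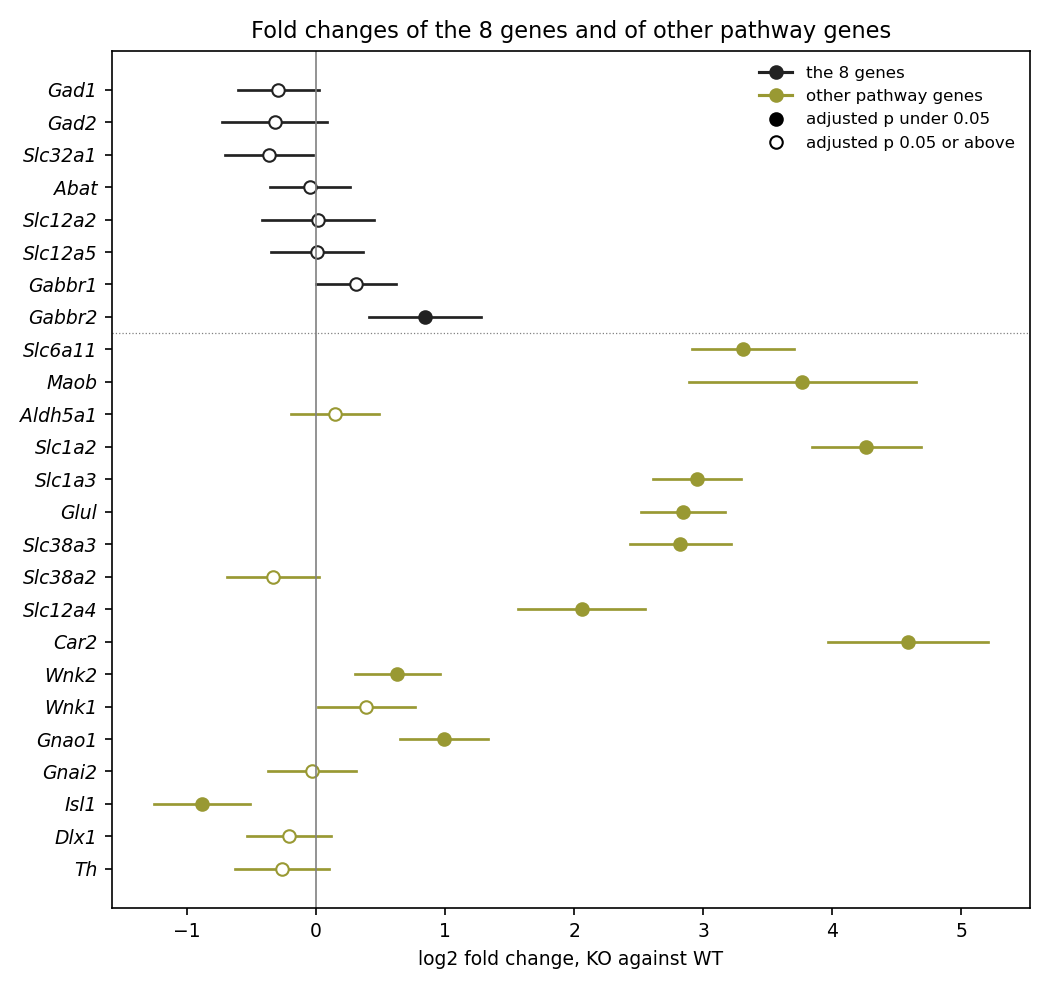
Log2 fold changes of KO against WT with 95% intervals, for the 8 genes (black) and for the other pathway genes named in the text (olive), with filled points for an edgeR adjusted p under 0.05. *Gabbr2* is the filled point among the 8, while the values of *Gad1*, *Gad2* and *Slc32a1* lie between -0.36 and -0.29 with open points and turn positive when libraries are scaled to pan-neuronal genes.

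Marker genes of other cells moved with the genotype. All 10 astrocyte markers were higher in KO, with a median log2 fold change of 4.47. Of 8 oligodendrocyte markers 6 were higher (summed level 190 to 229 CPM in WT and 662 to 665 CPM in KO), as were 6 of 8 mural cell markers (310 to 327 CPM and 681 to 736 CPM). The defining markers *Gfap*, *Opalin* and *Acta2* had 0 counts in both WT libraries, and the medians are the same with these genes at the limit that 3 counts per WT library allow. Of the tested microglial markers 2 of 7 were higher, and of the tested endothelial markers none of 7 passed (3 at an unadjusted p under 0.05, of which 1 was higher and 2 were lower). Of 10 genes carried by neurons in general, 3 were lower and none higher, with a median log2 fold change of -0.65 and a summed level of 5770 to 6386 CPM in WT and 4267 to 4335 CPM in KO. The part of these shifts in the values of the 8 genes and of the pathway genes was not tested.

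**Figure D3:**
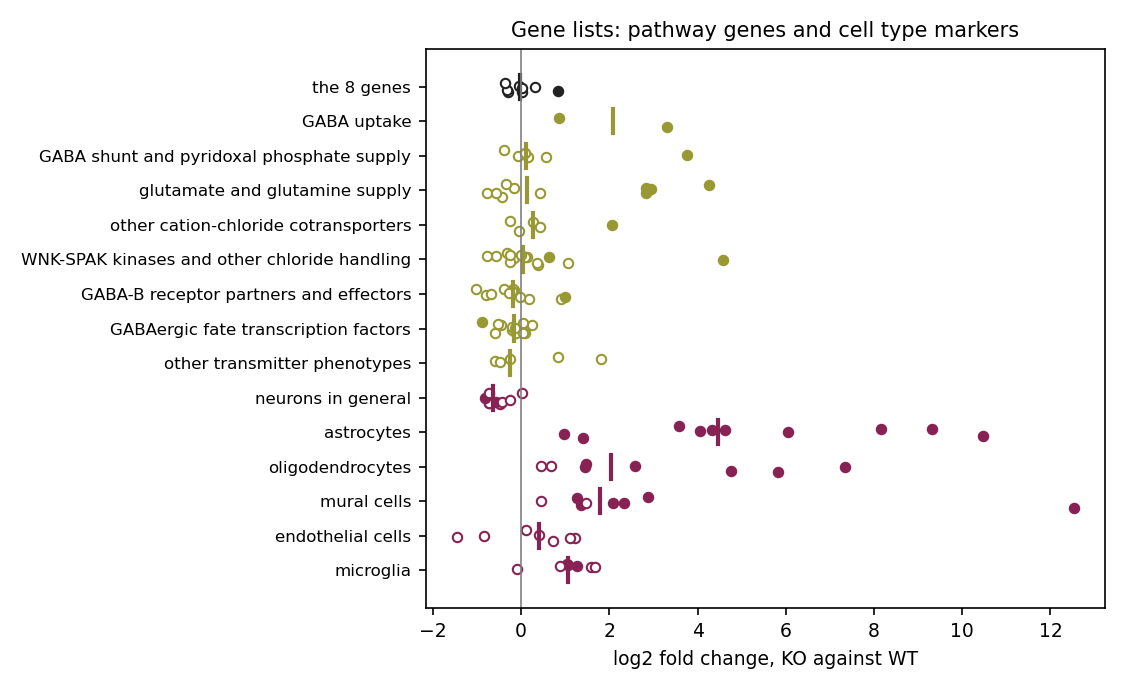
Log2 fold changes of KO against WT for each tested gene of the 8 genes (black), the pathway lists (olive) and the cell type marker lists (purple), with filled points for an edgeR adjusted p under 0.05 and a bar at each median. The 8 genes lie between -0.36 and 0.84 while the astrocyte markers lie between 0.96 and 10.5, and the points of *Gfap*, *Opalin* and *Acta2*, with 0 counts in WT, depend on the prior count of the fit.

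Set against the neuronal genes, the 8 genes gave another picture. Each library was scaled to the geometric mean of the 10 genes carried by neurons in general, which moved the median log2 fold change of all tested genes from -0.026 to 0.50. On this scale *Gad1*, *Gad2* and *Slc32a1* had log2 fold changes of 0.24, 0.23 and 0.16, all below that median and none past the threshold (edgeR adjusted p = 0.324, 0.350 and 0.536). *Gad1* relative to the neuronal mean was -0.85 and -0.71 in WT and -0.51 and -0.56 in KO on the log2 scale, so that it was higher in both KO libraries where on CPM it was lower. *Gad2* moved in the same way, whereas the libraries of *Slc32a1* overlapped on this scale. *Abat*, *Slc12a2* and *Slc12a5* stood at 0.48, 0.56 and 0.54, close to the median of all genes, and *Slc12a5* passed (adjusted p = 0.0450). *Gabbr1* was at 0.84 (adjusted p = 0.00308) and *Gabbr2* at 1.36 (adjusted p = 0.000336), both above the median of all genes. Calls were common on this scale: 3 of the 8 genes were higher and 0 lower, beside 4615 higher and 38 lower of all 16832 tested genes. The scaling shifts all genes by about the same amount, so that it changes signs, here those of *Gad1*, *Gad2*, *Slc32a1* and *Abat*, but hardly the order of the genes.

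**Figure D4:**
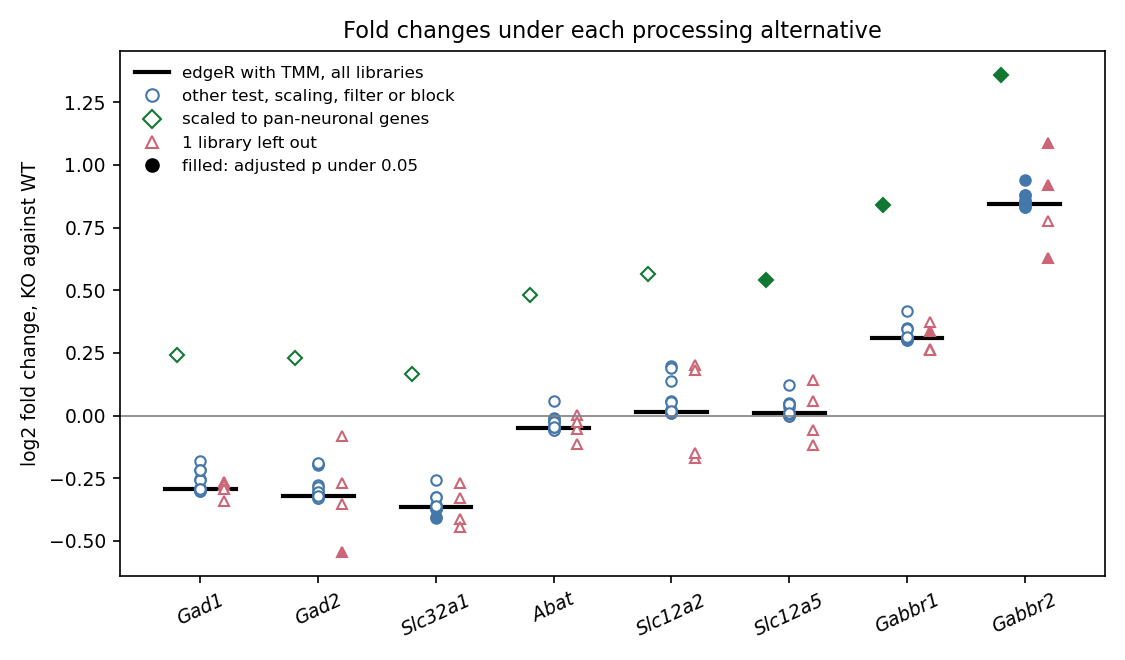
Log2 fold change of each of the 8 genes under every processing alternative, with a black bar for edgeR and TMM on all libraries, blue circles for another test, scaling, filter or block, green diamonds for scaling to pan-neuronal genes, red triangles for fits without 1 library and filled symbols for an adjusted p under 0.05. *Gabbr2* stays between 0.63 and 1.36, and *Gad1*, *Gad2* and *Slc32a1* stay below 0 in each fit but the one scaled to pan-neuronal genes, where they reach 0.16 to 0.24.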

How the data were processed

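RNA-seq was analysed in 2 WT and 2 KO libraries of sorted, pooled cells. Per the labels and the study's methods, the authors aligned reads with STAR 2.5.2a to mm10 and deposited raw counts per Ensembl gene from featureCounts 1.5.0-p1, after base calling with CASAVA 1.8.2. The annotation release and the strand setting are not given in the sources used here, so reads of overlapping antisense genes cannot be told apart. Of 55573 gene identifiers, 55480 matched GENCODE M21, which gave symbols, positions on GRCm38 and merged exon lengths.

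The genotype effect was tested with edgeR 4.0.16 (filterByExpr, TMM, quasi-likelihood F test, Benjamini-Hochberg adjustment over the 16832 genes kept, R 4.3.3), and every adjusted p is from this test unless another is named. CPM were computed on TMM-scaled library sizes. Alternatives were DESeq2 1.42.0, limma-voom (limma 3.58.1), other scalings and filters, a correction for length and GC content by splines of 5 degrees of freedom, a replicate block and fits without 1 library. On simulated data (16325 genes, 200 changed) edgeR recovered 92.5% of changed genes, and 2.12% of 189 calls were false. The WT libraries differed from each other by a chi-square of 57.2 per degree of freedom and the KO libraries by 4.28, which is more than sampling noise. They were fitted as 2 libraries per genotype, but preparations of 1 pool can differ as much, so the chi-square does not show separate biological replicates. Library totals were 8075102 to 9995968 counts, and the limit of 3 counts covers counting error only.

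Of each pathway list, the genes named by rule were those called (at most 6, by absolute fold change) and the uncalled gene with the highest mean CPM; other genes given with counts were picked with their values in view. Some genes that enter the counts over lists are not reported here by name. The 8 genes and all lists were chosen with earlier results of these data known.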

Additional observations from a re-analysis of the deposited data

How the results depend on the processing

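Among the 8 genes, 1 was called higher and 0 were called lower. The number higher was 3 when libraries were scaled to pan-neuronal genes, 2 after the length and GC correction and 0 at an adjusted p under 0.01, and it ranged from 0 to 2 without 1 library. The number lower was 1 after the length and GC correction, with or without the replicate block, and ranged from 0 to 1 without 1 library. Of the pathway genes, 11 were called higher, against 25 with pan-neuronal scaling, and 9 to 15 without 1 library. The 1 lower gene became 4 by DESeq2, 2 by limma-voom, 0 with pan-neuronal scaling, 5 with no filter, 5 with the replicate block, 6 after the length and GC correction, 8 with both, 3 at an adjusted p under 0.1 and 0 at one under 0.01, and ranged from 0 to 11 without 1 library. Over all genes, 1233 higher and 96 lower calls became 1998 and 983 after the length and GC correction, 1246 and 247 by DESeq2, 4615 and 38 with pan-neuronal scaling, 2578 and 1300 without WT 1, 2029 and 2180 without WT 2, 954 and 117 without KO 1 and 900 and 51 without KO 2, so the shares over all genes used as background depend on single libraries too. The sign turned with pan-neuronal scaling for *Gad1* (0.24), *Gad2* (0.23), *Slc32a1* (0.16), *Abat* (0.48), *Slc38a2* (0.21), *Gnai2* (0.49), *Dlx1* (0.33) and *Th* (0.26), which moved the median of all genes to 0.50. On library size alone it turned for *Abat* (0.059) and *Gnai2* (0.074), and *Gnai2* was 0.0090 with upper quartile scaling and 0.0068 with at least 10 counts in every library. Without 1 library, *Abat* ranged from -0.11 to 0.0004, *Slc12a2* from -0.17 to 0.20, *Slc12a5* from -0.12 to 0.14 and *Gnai2* from -0.15 to 0.086. The log2 ratio of *Gad1* to *Gad2* (KO against WT, 0.027) then ranged from -0.18 to 0.20, that of *Gabbr1* to *Gabbr2* (-0.53) from -0.75 to -0.36 and that of *Slc12a2* to *Slc12a5* (0.0073) from -0.29 to 0.30. The causes were not tested. Libraries of the same number share only that number (correlation of their deviations 0.137, which is the same for both pairs by construction). With the replicate block *Gabbr2* was 0.86 (adjusted p = 0.00242), no call among the 8 genes changed, and all calls numbered 1625 higher and 619 lower. *Gabbr1*, called after the length and GC correction, was not called when the block was added to it (0.31, adjusted p = 0.0550), whereas *Th* (-0.43, adjusted p = 0.00742) and *Wnk1* (0.45, adjusted p = 0.00249) were called in both. *Dnmt1* passed with the block (-0.56, adjusted p = 0.0149).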
